A study of Homo sapiens with 8 samples.

Results

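The 10 protein-coding genes studied here border the HOXA cluster of homeobox genes on the short arm of chromosome 7 (band 7p15), and each was followed through 8 RNA libraries. The genes were chosen by their place: 5 at lower coordinates than the cluster (NFE2L3, HNRNPA2B1, CBX3, SNX10 and SKAP2) and 5 at higher coordinates (HIBADH, TAX1BP1, JAZF1, CREB5 and CPVL), found by mapping the Ensembl identifiers of the count table to symbols and ordering them by start. They are 10 of the 63140 genes in the table, and all 10 were among the 24057 genes that passed the filter on low counts.

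The libraries are labelled as coming from 2 established human acute myeloid leukaemia lines, MOLM13 and OCI-AML4, 3 days after editing. The assay was ChIRP (chromatin isolation by RNA purification), in which biotinylated probes pull RNA and chromatin out of cross-linked, sonicated cells. Which RNA the probes bind is not given in the labels, and no input library is used here, so every level is an amount in the pull-down and not the amount in the cell. The 4 groups were AAVS1 KO (Cas9 ribonucleoprotein with a guide to AAVS1, a safe-harbour site that serves as the editing control), HOTSCRAMBL KO (Cas9 ribonucleoprotein with guides to the long non-coding RNA HOTSCRAMBL), AAVS1 CBE and HOTSCRAMBL CBE (the same targets with a cytosine base editor, which changes C to T without cutting both strands). The labels give AAVS1 cells the genotype WT, but those cells were also nucleofected with an editor, as were all 8 libraries. Each group held 1 library labelled MOLM13 and 1 labelled OCI-AML4, and the labels give no editing efficiency and do not say whether edited cells were clones. No gene of the table is paired with the name HOTSCRAMBL, so its own level was not analysed here.

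HOXA genes encode transcription factors that specify position in the embryo and sustain self-renewal of blood progenitors, and high HOXA expression is a known trait of many acute myeloid leukaemias. Genes on either side of such a cluster lie in neighbouring chromatin domains and need not share its enhancers, which is why flanking genes serve as a local reference when a locus is edited. HNRNPA2B1 and CBX3 are a widely used example of a housekeeping pair: they are transcribed away from each other from a shared CpG island with open chromatin in most cell types.

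Of that pair HNRNPA2B1 was the only flanking gene that passed the test below, and CBX3 did not pass. The upstream sequences of both are shown. They are the 250 bases before each RefSeq transcription start (GRCh38.p14), written 5′ to 3′ on the strand of the gene. HNRNPA2B1 was read from chr7:26200747-26200996 on the minus strand, with its start at 26200746. CBX3 was read from chr7:26201193-26201442 on the plus strand, with its start at 26201443. Capitals mark every match, on either strand, to the TATA box TATAAA, the CCAAT box, the GC box GGGCGG, the ETS-type motif CCGGAAG and the core TGACG of CREB and ATF sites.
HNRNPA2B1: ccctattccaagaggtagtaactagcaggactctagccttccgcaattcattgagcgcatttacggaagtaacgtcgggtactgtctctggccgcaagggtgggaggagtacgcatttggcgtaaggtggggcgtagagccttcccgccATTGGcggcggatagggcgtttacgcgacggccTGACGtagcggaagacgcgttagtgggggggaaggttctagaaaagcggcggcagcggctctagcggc
CBX3: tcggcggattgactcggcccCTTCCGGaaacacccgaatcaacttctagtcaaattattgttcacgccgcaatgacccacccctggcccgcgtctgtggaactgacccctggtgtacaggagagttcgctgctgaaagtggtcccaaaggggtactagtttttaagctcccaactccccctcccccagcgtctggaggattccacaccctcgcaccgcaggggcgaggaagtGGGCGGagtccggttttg

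The starts lay 697 bases apart. The HNRNPA2B1 window held 24 CpG dinucleotides, more than the median of 11 over 35116 RefSeq promoter windows of that length, and the CBX3 window held 16. HNRNPA2B1 had 1 match to CCAAT, a motif in 32.0% of those windows, and 1 to TGACG, in 21.2%. CBX3 had 1 match to GGGCGG, in 42.6%, and 1 to CCGGAAG, in 8.52%. Neither window held TATAAA, which 10.7% of windows held. These matches describe letters only. Promoter entries were found for 8 of the 10 genes.

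Total counts ran from 20548300 to 37970163 per library. The summed level of 12 myeloid blast markers was 2620 to 3070 CPM (counts scaled to a common library total) in every library, against 1.20 to 11.7 CPM for 5 T cell markers (CD3E and CD2 at 0), 6.03 to 11.0 for 5 B cell markers, at most 1.58 for 5 erythroid markers (HBB and HBA2 at 0), at most 1.06 for 5 fibroblast markers (COL3A1 and LUM at 0) and 0.124 to 5.25 for 5 epithelial markers (KRT19 at 0). Single myeloid markers differed between the groups: 3 of 11 tested were called higher with KO (LYZ at 2.20, CEBPA at 1.00 and CSF1R at 0.69 on the log2 scale) and 1 lower (MYB at −0.28), and with CBE PTPRC (0.67) and CEBPA (0.61) were called higher and CSF3R (−0.38) lower. Of the 12 myeloid blast markers, KIT (at most 0.607 CPM) and CD34 (at most 1.58 CPM) were nearly absent, each with a median of 0. The highest medians in that list were those of MYB (983 CPM) and CSF3R (682 CPM). The epithelial sum was 0.124 to 0.341 CPM with HOTSCRAMBL KO and 3.82 to 5.25 with AAVS1 KO. In the CBE groups it was 2.50 to 5.14 with HOTSCRAMBL and 2.85 to 3.89 with AAVS1. Only 2 of the 5 epithelial markers were tested, and 0 were called with either editor. Of 12 ribosomal protein genes, 12 were called higher with each editor, with a summed level of 4550 to 5770 CPM in the AAVS1 libraries and 13400 to 19600 in the HOTSCRAMBL libraries. Of 9 mitochondrially encoded RNAs, 8 were called higher with KO, and 7 higher and 1 lower with CBE; their summed level was 32900 to 35200 CPM with AAVS1 KO, 62700 to 66300 with HOTSCRAMBL KO, 32900 to 36200 with AAVS1 CBE and 39100 to 41900 with HOTSCRAMBL CBE. These shifts accompanied every HOTSCRAMBL comparison below, and their part in them was not tested. Between the labelled lines 0.495% of tested genes were called, a small share for 2 different lines; the line labels were used as given and were not checked otherwise.

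Levels below are CPM after TMM scaling, a correction for library composition, with both libraries of a group given in the order MOLM13 label, OCI-AML4 label. A gene was called when its p-value from edgeR's quasi-likelihood test, adjusted by the Benjamini-Hochberg method over all 24057 genes, was under 0.05. With HOTSCRAMBL KO, 1 of the 10 flanking genes was called, HNRNPA2B1, which fell, while 8.76% of all tested genes were called (4.25% as lower). With HOTSCRAMBL CBE, 1 of 10 was called, again HNRNPA2B1 and again lower, against 8.83% of all genes (4.27% as lower). One gene of 10 is close to either background share, so the flanking genes as a set did not stand apart in their number of calls. Their median log2 fold change was 0.43 with KO, where 6 lay above 0 and 4 below, and 0.23 with CBE, where 9 lay above 0 and 1 below. Over all tested genes the medians were −0.01 and −0.02. Leaving out CREB5, whose counts were close to 0, the medians of the other 9 were 0.28 and 0.22. With KO 3 members had both HOTSCRAMBL libraries above both controls and 1 had both below, against 21% and 23.8% of all tested genes, and with CBE 2 were above and 1 below, against 22.7% and 23.7%.

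**Figure D1:**
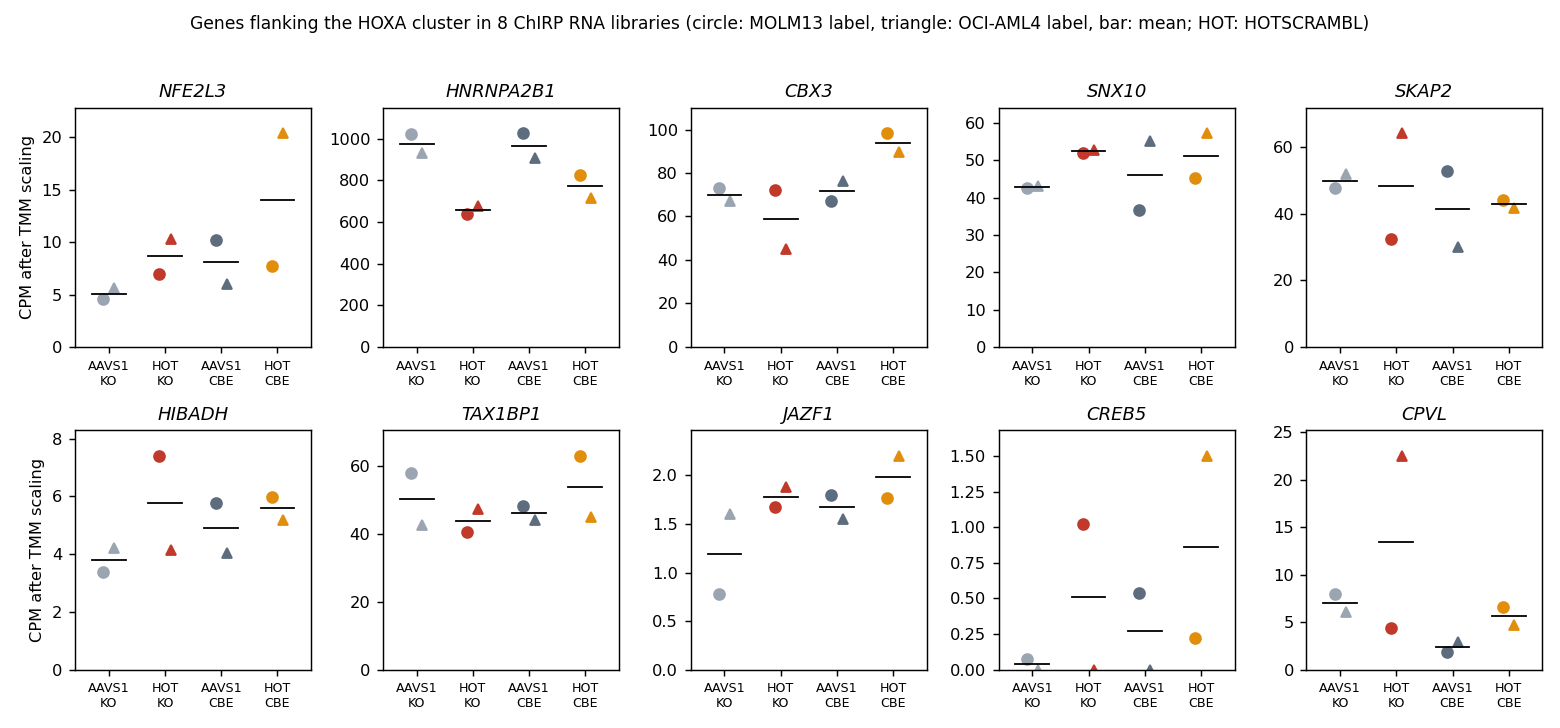
Level of each flanking gene in each library, in CPM after TMM scaling on a linear axis from 0, by group; a circle is the library labelled MOLM13, a triangle the one labelled OCI-AML4 and the bar their mean. HNRNPA2B1 lay between 907 and 1027 CPM in the AAVS1 libraries and between 637 and 825 in the HOTSCRAMBL libraries, while CPVL and NFE2L3 each had 1 library far from the rest.

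In the control libraries the flanking genes spanned a wide range of levels. Per kilobase of annotated exonic sequence, the mean over the 4 AAVS1 libraries was 77.1 ± 4.82 CPM (SD, n = 4) for HNRNPA2B1 and 14.6 ± 0.931 for CBX3, the next in order. SKAP2 followed at 8.5 ± 2.0, then TAX1BP1 at 5.28 ± 0.751 and SNX10 at 4.65 ± 0.817. HIBADH, NFE2L3 and CPVL were lower, at 1.96 ± 0.458, 1.54 ± 0.580 and 1.41 ± 0.841. JAZF1 stood at 0.337 ± 0.105 and CREB5 at 0.0132 ± 0.0222. The ranges of SKAP2 and TAX1BP1, of TAX1BP1 and SNX10, of HIBADH and NFE2L3, and of NFE2L3 and CPVL overlapped, so the order within those pairs was not resolved. The length includes exonic bases shared with another gene, 28.1% of those of NFE2L3, where reads were not counted. Values of genes with such bases can therefore be too low. Its mean control level put HNRNPA2B1 at percentile 99.7 of the tested genes, while CREB5 lay at percentile 3.76. Over all 8 libraries, and not the controls alone, HNRNPA2B1 took 78.1% of the counts of the 10 genes.

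HNRNPA2B1 (ENSG00000122566, chr7:26171151-26201529, minus strand, 891 kb from the cluster) encodes an abundant nuclear RNA-binding protein that packages nascent transcripts and takes part in splicing, RNA sorting and the reading of methylated RNA. Its level was 1021 and 934 CPM with AAVS1 KO, 637 and 678 with HOTSCRAMBL KO, 1027 and 907 with AAVS1 CBE, and 825 and 717 with HOTSCRAMBL CBE. The 4 HOTSCRAMBL libraries were all below the 4 AAVS1 libraries, an arrangement seen in 6.21% of tested genes. This share was not computed for abundant genes alone. Group means were 977 ± 61.5 and 658 ± 29.2 CPM (SD, n = 2 each) for AAVS1 KO and HOTSCRAMBL KO, and 967 ± 84.9 and 771 ± 75.9 for the CBE groups.

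With KO, HNRNPA2B1 fell by 0.57 on the log2 scale (SE 0.0918, edgeR adjusted p = 1.01e-04), to 0.675 times the control level with a 95% interval of 0.592 to 0.770. The same-label pairs gave log2 differences of −0.68 and −0.46. Such pairs are descriptive here and below, because libraries with the same label shared little deviation from their group means. With CBE it fell by 0.33 (SE 0.0897, edgeR adjusted p = 0.0194), to 0.797 times the control with an interval of 0.701 to 0.906, and the pairs gave −0.32 and −0.34. Being called lower with both editors was shared by 1.41% of all tested genes. That share was not computed for abundant genes alone, where calls were commoner. The log2 fold change with KO minus that with CBE was −0.24 (95% interval −0.50 to 0.02, edgeR adjusted p = 0.417), so a larger fall with KO was not resolved. The AAVS1 groups differed by 0.02 (interval −0.17 to 0.20, edgeR adjusted p = 0.998). In a bulk pull-down, less RNA per cell, fewer cells that carry it and less RNA recovered by the probes cannot be told apart.

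Calls were commoner among abundant genes. Among the 2406 tested genes with the highest mean levels (the top 10%), where HNRNPA2B1 belongs, 23% were called lower with KO and 19% with CBE. The fall with KO was called in 18 of 18 alternative fits, with log2 values of −0.73 to −0.45. The fall with CBE kept its direction in all 18 (−0.47 to −0.27) but was called in 10: the adjusted p was 0.111 without the term for line and 0.100 with only the 4 CBE-contrast libraries. It ranged from 0.0637 to 0.332 when 1 AAVS1 library of either editor or 1 HOTSCRAMBL CBE library was left out.

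CBX3 (ENSG00000122565, chr7:26201162-26213607, plus strand, 879 kb from the cluster), the divergent partner, encodes HP1 gamma, a reader of methylated histone H3 lysine 9. Its level was 72.9 and 67.2 CPM with AAVS1 KO and 72.3 and 45.2 with HOTSCRAMBL KO. With AAVS1 CBE it was 67.0 and 76.1, and with HOTSCRAMBL CBE 98.3 and 89.7. The KO groups overlapped, and the HOTSCRAMBL CBE libraries were both above their controls, as in 22.7% of tested genes. The log2 fold change was −0.27 with KO (SE 0.208, edgeR adjusted p = 0.526; pairs −0.01 and −0.57) and 0.40 with CBE (SE 0.178, unadjusted p = 0.0347, edgeR adjusted p = 0.200; pairs 0.55 and 0.24). Neither passed the test, and the value with CBE was 0.16 or 0.61 without the AAVS1 CBE library labelled MOLM13 or OCI-AML4. The difference between the editors was −0.67 (95% interval −1.23 to −0.10, edgeR adjusted p = 0.240), the smallest adjusted p of the 10 genes in that comparison, where 0 flanking genes and 3.19% of all tested genes were called.

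The proportion of the pair varied between libraries, within groups as well as between them, and was not tested. The count of HNRNPA2B1 over that of CBX3 was 14 and 13.9 with AAVS1 KO, 8.81 and 15 with HOTSCRAMBL KO, 15.3 and 11.9 with AAVS1 CBE, and 8.39 and 8.00 with HOTSCRAMBL CBE. The CBE groups did not overlap in this ratio, and the KO groups did. No background share was computed for ratios, so no conclusion is drawn from that separation. The annotated exons of both genes share 368 bases where reads were counted for neither. Another 1207 exonic bases of HNRNPA2B1 are shared with NFE2L3 on the other strand. In addition, 10 genes of the table are named as CBX3 pseudogenes, with 150 counts in 8 libraries, and reads placed equally well on a copy were not counted.

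JAZF1 (ENSG00000153814, chr7:27830573-28180795, minus strand, 630 kb from the cluster) encodes a zinc-finger subunit of the NuA4/TIP60 histone acetyltransferase complex and is fused to SUZ12 in endometrial stromal sarcoma. It was near the lower end of detection, with counts of 20 and 40 (AAVS1 KO), 33 and 42 (HOTSCRAMBL KO), 60 and 44 (AAVS1 CBE), and 64 and 56 (HOTSCRAMBL CBE). A count of 20 has an exact Poisson 95% interval of 12.2 to 30.9, which treats every counted read as independent. Both reads of a pair were counted separately and the reads carry no molecular identifiers, so the true counting error can be wider. Variation between libraries is not in that interval. In CPM the KO groups did not overlap (0.784 and 1.60 against 1.68 and 1.88). The log2 fold changes of 0.58 with KO (SE 1.07, edgeR adjusted p = 0.816) and 0.22 with CBE (SE 0.834, edgeR adjusted p = 0.920) were within their errors. Their 95% intervals ran from −1.62 to 2.78 and from −1.49 to 1.93.

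**Figure D2:**
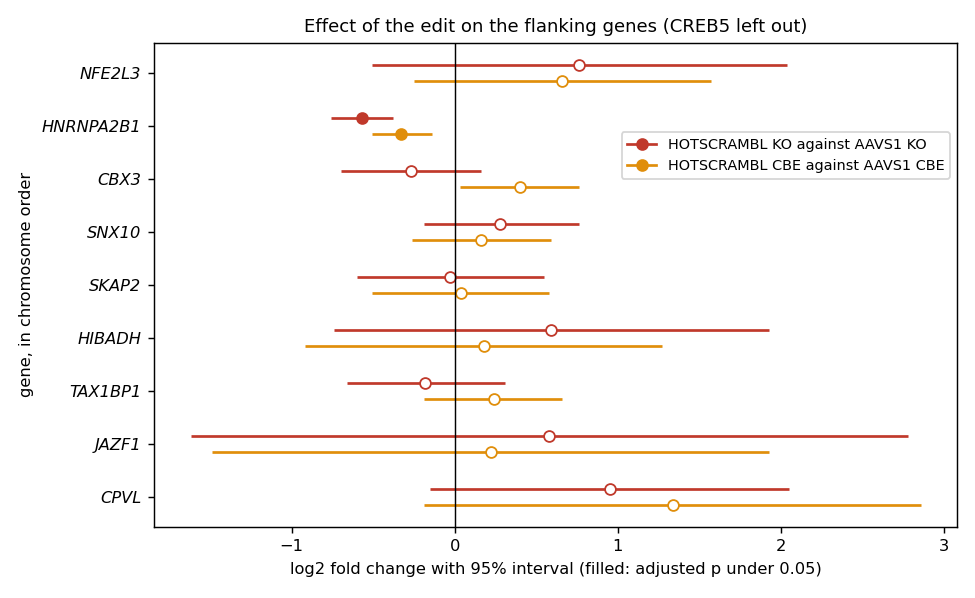
Log2 fold change of 9 flanking genes, HOTSCRAMBL against AAVS1, with KO and with CBE; lines are 95% intervals and filled points passed an adjusted p of 0.05. HNRNPA2B1 is the only gene with filled points, at −0.57 and −0.33; the CBX3 interval with CBE (0.03 to 0.76) lies above 0 without the adjusted p passing.

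NFE2L3 (ENSG00000050344, chr7:26152198-26187137, plus strand, 906 kb from the cluster) encodes a CNC-type leucine zipper factor that binds DNA together with small MAF proteins. Its level was 4.55 and 5.64 CPM with AAVS1 KO, 6.99 and 10.3 with HOTSCRAMBL KO, 10.2 and 6.01 with AAVS1 CBE, and 7.68 and 20.4 with HOTSCRAMBL CBE. The KO groups did not overlap, with HOTSCRAMBL higher, which was so for 21% of tested genes; the CBE groups overlapped. The log2 fold change was 0.76 with KO (SE 0.619, edgeR adjusted p = 0.549) and 0.66 with CBE (SE 0.443, edgeR adjusted p = 0.447). With CBE the pairs went opposite ways, −0.41 and 1.75, and without the HOTSCRAMBL CBE library labelled OCI-AML4 the value was −0.14. Of its exonic bases 28.1% are shared with HNRNPA2B1, the largest such share among the 10 genes.

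CREB5 (ENSG00000146592, chr7:28299321-28825894, plus strand, 1099 kb from the cluster) encodes a leucine zipper factor of the ATF2 family. It had counts of 2 and 0 with AAVS1 KO, 20 and 0 with HOTSCRAMBL KO, 18 and 0 with AAVS1 CBE, and 8 and 38 with HOTSCRAMBL CBE. In 4 libraries the count was at or below 3, the floor used here, so no fold is given. Neither contrast passed the test (edgeR adjusted p = 0.684 and 0.757).

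SNX10 (ENSG00000086300, chr7:26291862-26374383, plus strand, 719 kb from the cluster) encodes a sorting nexin of endosomes that is needed for acid secretion by osteoclasts. It gave 42.7 and 43.1 CPM with AAVS1 KO, 52.1 and 52.9 with HOTSCRAMBL KO, 36.7 and 55.3 with AAVS1 CBE, and 45.3 and 57.3 with HOTSCRAMBL CBE. The KO groups were tight and did not overlap, and the CBE groups did. The log2 fold change with KO was 0.28 (95% interval −0.19 to 0.76, edgeR adjusted p = 0.549), and with CBE 0.16 (−0.26 to 0.59, edgeR adjusted p = 0.722).

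SKAP2 (ENSG00000005020, chr7:26667068-26995239, minus strand) is the member closest to the cluster, at 98 kb, and encodes an adaptor of Src-family kinases in integrin signalling of neutrophils and macrophages. Its level was 47.7 and 52.0 CPM with AAVS1 KO, 32.4 and 64.1 with HOTSCRAMBL KO, 52.7 and 29.9 with AAVS1 CBE, and 44.2 and 41.6 with HOTSCRAMBL CBE. The HOTSCRAMBL and AAVS1 groups overlapped with each editor. The log2 fold change was −0.03 with KO (95% interval −0.60 to 0.55, edgeR adjusted p = 0.977) and 0.04 with CBE (−0.51 to 0.58, edgeR adjusted p = 0.962). The same-label pairs went opposite ways, −0.56 and 0.30 with KO and −0.26 and 0.48 with CBE. The log2 fold change with KO was 0.48 without the HOTSCRAMBL KO library labelled MOLM13.

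TAX1BP1 (ENSG00000106052, chr7:27739331-27844564, plus strand, 539 kb from the cluster) encodes a selective autophagy receptor that also carries the ubiquitin editor A20 to its substrates. Levels were 58.1 and 42.8 CPM with AAVS1 KO, 40.6 and 47.5 with HOTSCRAMBL KO, 48.4 and 44.1 with AAVS1 CBE, and 63.1 and 45.0 with HOTSCRAMBL CBE, with HOTSCRAMBL and AAVS1 overlapping for each editor. The log2 fold changes, −0.18 with KO (95% interval −0.66 to 0.31, edgeR adjusted p = 0.735) and 0.24 with CBE (−0.19 to 0.66, edgeR adjusted p = 0.587), did not pass. TAX1BP1 and JAZF1 overlap at their far ends on opposite strands and share 415 exonic bases.

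HIBADH (ENSG00000106049, chr7:27525442-27662883, minus strand, 325 kb from the cluster) encodes the mitochondrial dehydrogenase of 3-hydroxyisobutyrate in valine breakdown. It gave 3.37 and 4.2 CPM with AAVS1 KO, 7.40 and 4.16 with HOTSCRAMBL KO, 5.76 and 4.03 with AAVS1 CBE, and 5.99 and 5.20 with HOTSCRAMBL CBE. One HOTSCRAMBL KO library was the highest of the 8 and the other lay among the controls. The log2 fold changes were 0.59 with KO (95% interval −0.74 to 1.93, edgeR adjusted p = 0.677; 0.19 to 1.00 when single libraries were left out) and 0.18 with CBE (−0.92 to 1.27, edgeR adjusted p = 0.898).

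CPVL (ENSG00000106066, chr7:28995235-29195451, minus strand) is the farthest, at 1795 kb, and encodes a serine carboxypeptidase first described in macrophages. Its level was 7.92 and 6.12 CPM with AAVS1 KO, 4.44 and 22.5 with HOTSCRAMBL KO, 1.83 and 2.97 with AAVS1 CBE, and 6.60 and 4.72 with HOTSCRAMBL CBE. The highest library was 12.3 times the lowest, the widest span of the 9 members with counts in every library. The CBE groups did not overlap and the KO groups did. With CBE the log2 fold change was 1.34 (95% interval −0.19 to 2.86, edgeR adjusted p = 0.331), and it was 0.55 or 2.03 without the HOTSCRAMBL CBE library labelled MOLM13 or OCI-AML4. With KO it was 0.95 (−0.15 to 2.05, edgeR adjusted p = 0.338), the pairs were −0.82 and 1.86, and without the HOTSCRAMBL KO library labelled OCI-AML4 the value was −0.78.

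Between the controls, CPVL was the 1 flanking gene with an unadjusted p under 0.05. AAVS1 KO exceeded AAVS1 CBE by 1.56 on the log2 scale (95% interval 0.04 to 3.08, unadjusted p = 0.0449, edgeR adjusted p = 0.991), with both KO libraries above both CBE libraries. NFE2L3 was apart in the other direction (log2 difference −0.73, edgeR adjusted p = 0.991). Both kinds together, 29.8% of tested genes had control groups that did not overlap. Between the controls 0 flanking genes and 0% of tested genes were called by edgeR, where 3.82% had an unadjusted p under 0.05 and DESeq2 called 35 genes. Between the labelled lines 0 flanking genes were called by edgeR, 0 had an unadjusted p under 0.05, and the smallest adjusted p was 0.654; limma-voom called HNRNPA2B1 there (adjusted p = 0.0376).

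Effect and distance were set side by side. With KO the 5 genes at lower coordinates had a median log2 fold change of −0.03 and the 5 at higher coordinates 0.59; with CBE the medians were 0.16 and 0.24. The member closest to the cluster, SKAP2, had values of −0.03 and 0.04, and the called member, HNRNPA2B1, was the second farthest on its side. In the cluster, 17 of 19 listed genes were tested (EVX1 and EVX1-AS had no count). With KO 15 of the 17 lay below 0, 4 were called lower and the median was −1.25, and with CBE the median was 0.16 and 1 was called, higher. HOXA3, an anterior cluster gene, was at −2.21 with KO (SE 0.380, edgeR adjusted p = 1.93e-04) and HOXA-AS2, a non-coding RNA beside it, at −1.66 (SE 0.278, edgeR adjusted p = 1.40e-04), though without strand the reads of overlapping cluster genes cannot be separated. HOXA11 was at 1.23 with CBE (SE 0.391, edgeR adjusted p = 0.0484), a call lost in 14 of 18 alternative fits.

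**Figure D3:**
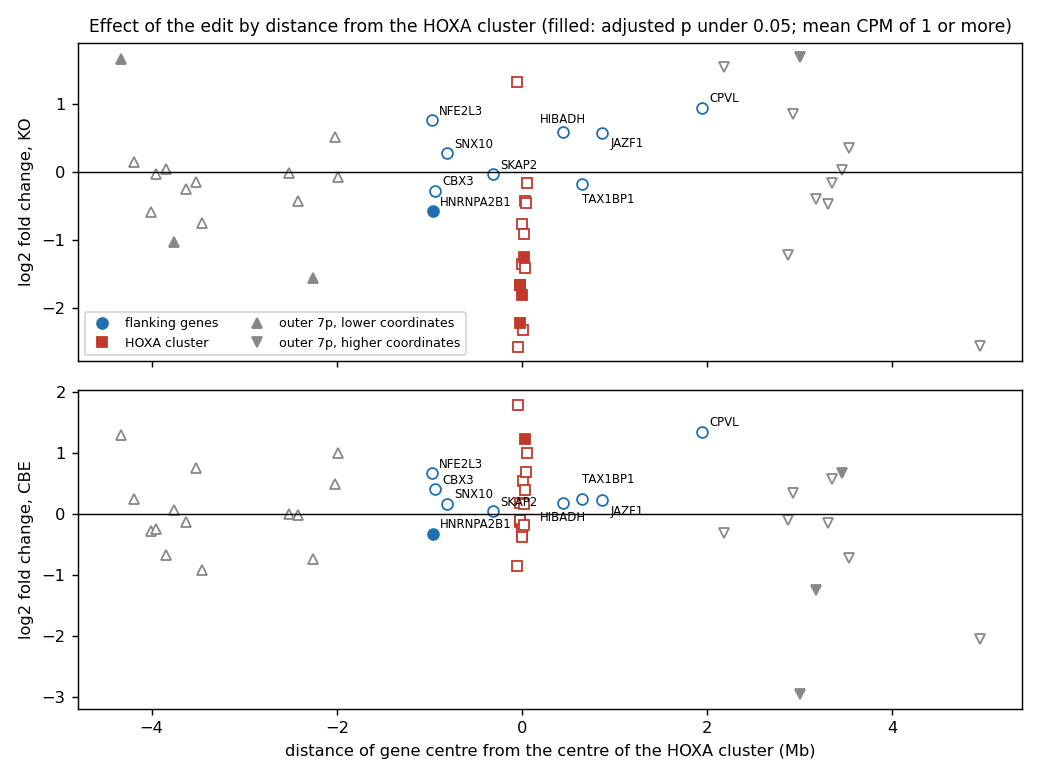
Log2 fold change with KO (upper) and CBE (lower) against distance from the middle of the HOXA cluster in Mb, for flanking genes, cluster genes and 2 outer lists; filled points passed an adjusted p of 0.05, and genes with a mean under 1 CPM, CREB5 among them, are left out. With KO the cluster genes reach below −2 while the labelled flanking genes lie between −0.57 and 0.95.

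Beyond the flanking genes, 15 of 21 listed genes at lower coordinates were tested, with a median of −0.07 with KO (1 called higher, 2 lower) and −0.03 with CBE (0 called). At higher coordinates 12 of 21 were tested, with medians of 0.14 (1 higher, 0 lower) and −0.13 (1 higher, 2 lower). The span from NFE2L3 to CPVL, 3.04 Mb, holds 59 more annotated genes, of which 40 had no count and 10 were tested. One of these was called, ENSG00000270182 (chr7:27158344-27158976, plus strand), which lies among the HOXA genes: it rose with CBE by 0.73 on the log2 scale (SE 0.120, edgeR adjusted p = 1.24e-04) and was at 0.12 with KO (edgeR adjusted p = 0.668). That call was lost in 3 of 18 alternative fits: with only the 4 CBE libraries and without the MOLM13-labelled library of either CBE group, where the log2 value stayed at 0.50 or above.

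Genes of a family, complex or pathway related to a flanking gene, called partners here, were taken as 10 lists. Being listed does not mean that a gene acts together with the flanking gene. Of 89 listed partners 88 were tested, and 11 were called higher and 8 lower with KO (21.6%), and 12 higher and 10 lower with CBE (25%). Those shares exceed the 8.76% and 8.83% over all genes. The partners lay at a median level percentile of 85.9, and in the top 10% by level 38.4% and 39.2% were called. No share was computed for genes at the partners' own levels, so the part of level in the excess was not tested. The partners' median log2 fold changes were −0.03 and 0.11.

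**Figure D4:**
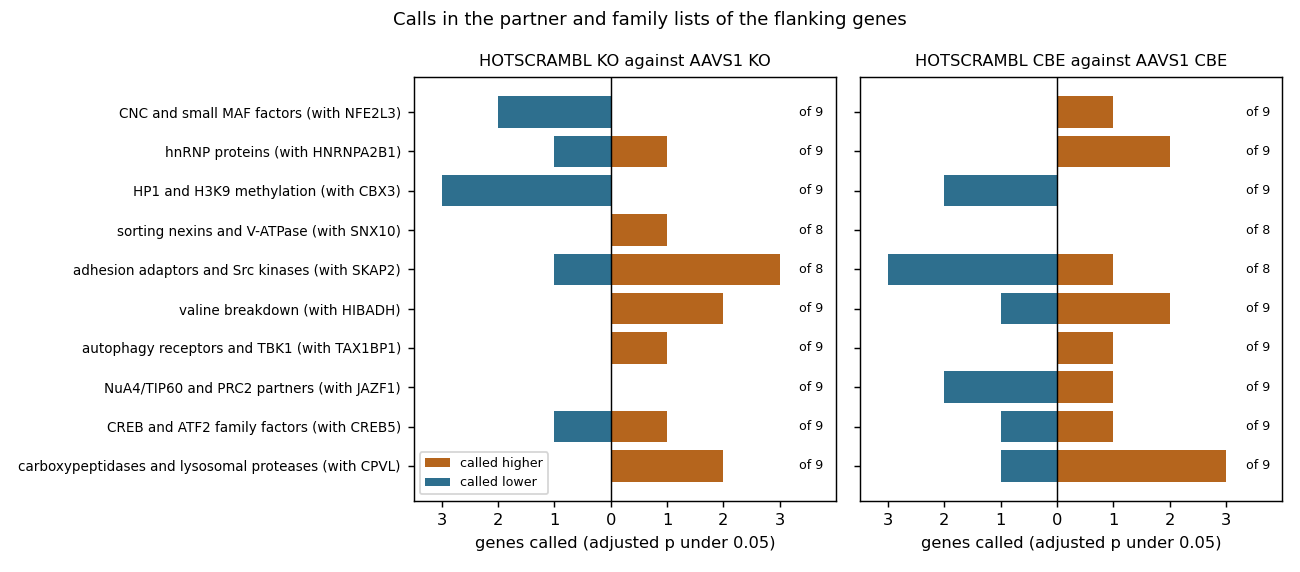
Number of genes called higher (right of 0) and lower (left of 0) in each partner or family list, with KO and with CBE; the number tested stands at the right of each row. No list had more than 4 calls of 8 or 9 tested genes with either editor.

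Among the partners of the RNA and chromatin proteins, 9 other hnRNP genes gave 1 call higher and 1 lower with KO and 2 higher with CBE. HNRNPA1, the closest relative of HNRNPA2B1, rose with both editors, by 0.34 (SE 0.108, edgeR adjusted p = 0.0483) and 0.95 (SE 0.104, edgeR adjusted p = 3.58e-07), the opposite direction to HNRNPA2B1; reads shared with copies of HNRNPA1 elsewhere in the genome were not counted, so its level is uncertain. HNRNPU, a scaffold protein of chromatin and RNA, was at −0.27 with KO (edgeR adjusted p = 0.0316) and HNRNPK at 0.44 with CBE (edgeR adjusted p = 0.0156). Of 9 genes of HP1 and H3K9 methylation, 3 were called lower with KO and 2 with CBE. EHMT1, a histone H3 lysine 9 methyltransferase, fell by 0.55 and 0.67 (edgeR adjusted p = 0.00736 and 7.08e-04), and ATRX, a chromatin remodeller of heterochromatin, by 0.48 and 0.42 (edgeR adjusted p = 0.0135 and 0.0264). Of 9 NuA4/TIP60 and PRC2 partners of JAZF1, 0 were called with KO; with CBE 1 was called higher and 2 lower, EP400 at −0.35 (edgeR adjusted p = 0.0197) and DMAP1 at −0.85 (edgeR adjusted p = 0.0325), both subunits of the TIP60 complex.

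Among transcription factors, 2 of 9 CNC and small MAF genes were called lower with KO: MAFG, a small MAF partner of CNC factors, at −0.68 (edgeR adjusted p = 8.37e-04) and its relative MAFK at −0.99 (edgeR adjusted p = 0.0288). With CBE 1 was called, NFE2L1, a regulator of proteasome genes, at 0.42 (edgeR adjusted p = 0.0176). Of 9 CREB and ATF2 family genes, 1 was called in each direction with each editor. FOS, an AP-1 subunit, fell by 1.10 with KO (edgeR adjusted p = 1.09e-07) and by 0.45 with CBE (edgeR adjusted p = 0.00656). JUN, the other AP-1 subunit, was at 1.48 with KO (edgeR adjusted p = 5.53e-06), and the coactivator CREBBP at 0.45 with CBE (edgeR adjusted p = 0.0138).

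Among trafficking and signalling partners, the 8 tested adhesion adaptors and Src kinases listed with SKAP2 gave 3 calls higher and 1 lower with KO, and 1 higher and 3 lower with CBE. APBB1IP, which links Rap1 to integrins, rose by 1.19 with KO (SE 0.131, edgeR adjusted p = 2.57e-07) and by 0.99 with CBE (SE 0.127, edgeR adjusted p = 4.23e-06). PRAM1, an adaptor of myeloid cells, moved in opposite directions, by 0.57 with KO (edgeR adjusted p = 8.07e-04) and −0.98 with CBE (edgeR adjusted p = 7.80e-07), and FGR, a myeloid Src kinase, fell by 2.16 with CBE (edgeR adjusted p = 2.30e-06). Of 8 sorting nexins and V-ATPase genes, 1 was called with KO, SNX3, at 1.07 (edgeR adjusted p = 0.00228), and 0 with CBE. Of 9 autophagy genes listed with TAX1BP1, 1 was called higher with each editor: the kinase TBK1 at 0.80 with KO (edgeR adjusted p = 0.0241) and the ubiquitin ligase ITCH at 1.02 with CBE (edgeR adjusted p = 0.0325).

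Among enzymes, the 9 genes of valine breakdown gave 2 calls higher with KO, and 2 higher and 1 lower with CBE. BCAT1, the cytosolic transaminase of branched-chain amino acids, rose by 1.45 with KO and 1.78 with CBE (SE 0.118 and 0.114, edgeR adjusted p = 1.06e-09 and 2.78e-11). ECHS1, an enoyl-CoA hydratase, was at 1.02 with KO (edgeR adjusted p = 0.00930) and 0.79 with CBE (edgeR adjusted p = 0.0482). ACAD8, an acyl-CoA dehydrogenase of the same path, was at −0.84 with CBE (edgeR adjusted p = 0.0188). The 9 carboxypeptidases and lysosomal proteases listed with CPVL gave 2 calls higher with KO, and 3 higher and 1 lower with CBE. CTSB, cathepsin B, rose by 2.09 with KO and 1.31 with CBE (SE 0.101 and 0.0994, edgeR adjusted p = 6.39e-14 and 6.50e-10). CTSD, cathepsin D, rose by 1.78 with KO (edgeR adjusted p = 8.91e-06) and CTSG, cathepsin G of granules, by 1.83 with CBE (edgeR adjusted p = 1.43e-07).

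Of these named partner calls, those of APBB1IP and BCAT1 with both editors held in 18 of 18 alternative fits. So did those of JUN, CTSD, FOS and CTSB with KO, and of FGR, CTSG, PRAM1 and HNRNPA1 with CBE. ECHS1 with CBE was called in only 4 of 18. Each of the others was lost in 1 to 11 of 18, the most for HNRNPA1 with KO.

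Patterns over the 8 libraries were compared by Pearson's r of log2 CPM among 11990 genes with a level above the median. These r values describe libraries that share groups, depth and scaling, and carry no p. The pattern of HNRNPA2B1 was close to those of GINS4 (r = 0.987) and INTS3 (0.983), and 205 genes exceeded 0.9 with it. For CBX3, SPEF2 (0.964) and MED14 (0.954) were close, with 37 genes over 0.9. Between the flanking genes themselves, HNRNPA2B1 and CBX3 had an r of 0.141, and NFE2L3 and JAZF1 the highest, 0.764. The closest 3 were ACLY, NDUFB10 and NME2 for SNX10 (0.955 to 0.979), THAP11, CD99L2 and GNA11 for SKAP2 (0.935 to 0.966), and TMEM186, MSH6 and HDAC1 for TAX1BP1 (0.926 to 0.956). At lower levels they were RBIS, GGH and LMO7 for HIBADH (0.941 to 0.962), ISCA2, MRPL47 and RFX7 for JAZF1 (0.984 to 0.988), ARIH1, BLOC1S5 and ERLIN1 for NFE2L3 (0.909 to 0.924) and RHOH, ZFAND1 and BCCIP for CPVL (0.927 to 0.931). For CREB5 they were FCGR1A, PPP1R15B and NCK1-DT (0.923 to 0.937), where 3 of 8 counts were 0. The nearest genes depended on scaling: without TMM, 1 of the 3 was shared for SNX10, CREB5 and CPVL (BCCIP then had r = 0.649 with CPVL), 2 for NFE2L3, CBX3 and TAX1BP1, and 3 for the other 4 genes.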

How the data were processed

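The files hold whole-number counts of reads per gene, deposited by the authors without normalization. Per the file headers they were made by featureCounts 2.0.6 with the Ensembl 112 annotation of GRCh38, ignoring strand, without reads placed at several positions or over several genes, and with both reads of a pair counted separately; duplicate removal is not given in the sources used here. Because strand was ignored, reads of overlapping genes on opposite strands cannot be told apart except where they were dropped.

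The test was edgeR's (4.0.16, R 4.3.3; quasi-likelihood, robust, TMM scaling, filterByExpr with a minimum count of 10), with terms for the 4 groups and the labelled line, 3 residual degrees of freedom and all 8 libraries sharing the spread. P-values were adjusted by Benjamini-Hochberg over 24057 genes. Fold intervals are at 95%. Library totals were 20548300 to 37970163, and 2 broken records were rejoined. The log2 CPM used a prior count of 2. Symbols were found for 99.05% of identifiers.

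Libraries with the same number share a labelled line, so the line is a block in the fit. Deviations from group means correlated between groups by r of 0.00851 to 0.0245 over all tested genes and 0.0411 to 0.117 over those above the median level. Nothing says whether libraries came from separate cultures beyond the lines, so p-values measure the spread between these libraries. Alternatives were DESeq2 1.42.0, limma-voom (limma 3.58.1), other scalings, no filter, no line term, no robust estimation, 4 libraries only, each library left out, and, chosen after seeing the data, an older dispersion form and halved counts.

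The members and gene lists were chosen with earlier results of these data known. All 10 flanking genes are named, whatever their values. From the HOXA list and each partner list the 2 called genes with the smallest p per HOTSCRAMBL contrast are named, and for each flanking gene the 3 genes with the highest r, of which some are not reported here. Other genes between the first and last flanking gene are named where called.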

Additional observations from a re-analysis of the deposited data

Results flagged for a closer look

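No flanking gene showed a tested difference between the effect of KO and that of CBE. Of the cluster and partner genes named, 10 did (edgeR's quasi-likelihood test of the difference, adjusted p under 0.05), given here as the log2 effect with KO minus that with CBE. In the cluster, HOXA3 differed by −2.08 (−2.21 with KO, −0.14 with CBE) and HOXA-AS2 by −1.84 (−1.66 and 0.17). Among factors and RNA-binding proteins, the difference was −0.75 for NFE2L1 (−0.33 and 0.42), −0.61 for HNRNPA1 (0.34 and 0.95), −0.65 for FOS (−1.10 and −0.45) and 1.39 for JUN (1.48 and 0.09). Among SKAP2 partners it was 1.55 for PRAM1 (0.57 and −0.98) and 2.48 for FGR (0.32 and −2.16). Among proteases it was 0.78 for CTSB (2.09 and 1.31) and −1.31 for CTSG (0.52 and 1.83). With 2 libraries per group, no test for a single library that stands apart was made.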

How the results depend on the processing

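The call of HNRNPA2B1 with KO held in every alternative tried, and its direction with CBE did too, but the number of flanking genes called with CBE was 0 without the replicate block for line, 0 with only the 4 libraries of the contrast, and 0 to 1 when each library was left out. Genes called in all were 4150 with KO, 3351 with CBE, 2205 for the difference between editors, 35 between controls and 715 between lines by DESeq2 (main: 2108, 2124, 767, 0 and 119). With only 4 libraries they were 780 with KO and 677 with CBE. Leaving out each library gave 677 to 1674 with KO, 586 to 1885 with CBE, 226 to 372 for the difference and 26 to 65 between lines; the arm with 1 library was assumed to vary like the others. Without the replicate block the difference gave 503 genes. Between lines limma-voom called 265 genes, 1 of them flanking (HNRNPA2B1), and the older dispersion form 193. Without TMM the median of all genes moved to −0.17 with KO and −0.15 with CBE, and the share of calls that were higher fell to 33.1% and 32.6%, from 51.5% and 51.6%; SKAP2 with CBE then read −0.10.

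Directions of uncalled flanking genes turned when single libraries were left out. With KO the ranges were −0.63 to 0.028 for CBX3, −0.76 to 0.48 for SKAP2, −0.49 to 0.10 for TAX1BP1 and −0.78 to 1.79 for CPVL. With CBE they were −0.15 to 1.58 for NFE2L3, −0.054 to 0.39 for SNX10, −0.43 to 0.69 for SKAP2 and −0.08 to 0.56 for JAZF1. For the difference they were −0.83 to 0.92 for NFE2L3, −0.10 to 0.35 for SNX10, −0.79 to 0.44 for SKAP2, −0.0033 to 0.93 for JAZF1 and −2.07 to 0.50 for CPVL. Without a change of sign, the range was 0.55 to 2.03 for CPVL, 0.16 to 0.61 for CBX3, 0.08 to 0.33 for HIBADH and 0.03 to 0.38 for TAX1BP1 with CBE, and 0.19 to 1.00 for HIBADH, 0.21 to 1.15 for JAZF1 and 0.13 to 0.45 for SNX10 with KO. The cause was not tested.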
